A study of Mus musculus with 6 samples.

Results

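The genes described here encode the cytochrome P450 enzymes of families 1, 2 and 3 in mouse liver, measured after oral treatment with trichloroethylene (TCE), a chlorinated solvent. A probe belonged to the set when its gene symbol was a P450 symbol of these families that ends in a number. Cyp2e1, the enzyme known for oxidizing TCE itself, and Cyp2f2 were left out. The rule gave 69 probes for 52 genes, out of 55681 probes that are not controls and 24239 genes. Liver RNA came from male B6C3F1 mice of 7 weeks, the hybrid offspring of C57BL/6 and C3H parents. The 3 control mice received corn oil by gavage for 5 days, and the 3 TCE mice received daily TCE in corn oil at 1000 mg/kg b.w. over the same time. RNA of each mouse was hybridized to a single-colour array of its own, so n = 3 per group throughout.

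P450 enzymes are heme proteins of the endoplasmic reticulum that insert oxygen into drugs, solvents, steroids and fatty acids, using electrons that P450 oxidoreductase passes on from NADPH. In liver, Cyp2b10 is the classic target of the constitutive androstane receptor (CAR, gene Nr1i3), Cyp3a11 of the pregnane X receptor (PXR, gene Nr1i2), and Cyp1a1 and Cyp1a2 of the aryl hydrocarbon receptor (AHR). Many members are also bound to sex, since the pattern of growth hormone release makes some of them male-biased and others female-biased, and Cyp1a2 and several Cyp2c enzymes are made mainly by the hepatocytes around the central vein.

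Values are log2 signals after quantile normalization of the arrays. A gene counted as detected when, in the control or in the TCE group, a probe of it was well above background in every mouse. This held for 13284 genes, among them 41 of the 52 P450 genes (55 of the 69 probes). Each gene is given by its brightest detected probe. A change was called when the adjusted p of limma, with Benjamini-Hochberg adjustment over all detected probes, was 0.05 or less and the fold change was 2 or more. Hepatocyte markers such as Alb, Ttr and Apoa1 were detected for 10 of 10 genes on the list, and none of them passed the threshold. Liver is a mixture of cells, and in bulk RNA fewer cells of a type and less RNA per cell cannot be told apart. The array of control mouse 1 was on one slide and the arrays of the other 5 mice on another.

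By the threshold 3 of the 41 detected P450 genes were down-regulated, Cyp2c37, Cyp2c67 and Cyp2c68, where 0.429% of all detected genes were, and 0 of 41 were up-regulated, where 1.3% of all detected genes were. With no minimum fold, limma gave an adjusted p of 0.05 or less for 5 P450 genes that were lower (Cyp1a2 and Cyp2c54 in addition), against 0.587% of all genes, and for 0 that were higher, against 1.8% of all genes. At an unadjusted p under 0.05, limma gave 12 lower P450 genes, against 7.11% of all genes, and 3 higher ones, against 12% of all genes. In 17 of the 41 genes (41.5%) all 3 TCE mice were below all 3 control mice, a pattern found in 10.8% of all detected genes. The reverse, all TCE mice above all control mice, was found in 3 P450 genes (Cyp2b10, Cyp3a13 and Cyp3a44) and in 17.1% of all genes. The same 3 genes were the higher ones at an unadjusted p under 0.05 by limma. Cyp3a44 counted as detected through the TCE group alone, so it entered both counts only because it was high there.

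The log2 fold change was below 0 for 31 of the 41 genes (75.6%), against 46.9% of all detected genes, and its median was -0.26 against 0.02. Related P450 genes are not independent of each other, so these shares describe the set and were given no test. The subfamilies differed in their medians. The median log2 fold change was -0.74 over 11 Cyp2c genes, -0.51 over 2 Cyp1a genes, -0.33 over 9 Cyp2d genes, -0.23 over 2 Cyp2a genes, -0.12 over 7 Cyp3a genes and 0.02 over 5 Cyp2j genes. Cyp2b10, the only detected Cyp2b gene, was at 2.48. The Cyp2j median was -0.34 with no filter on dim probes and went below 0 with some mice left out.

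**Figure D1:**
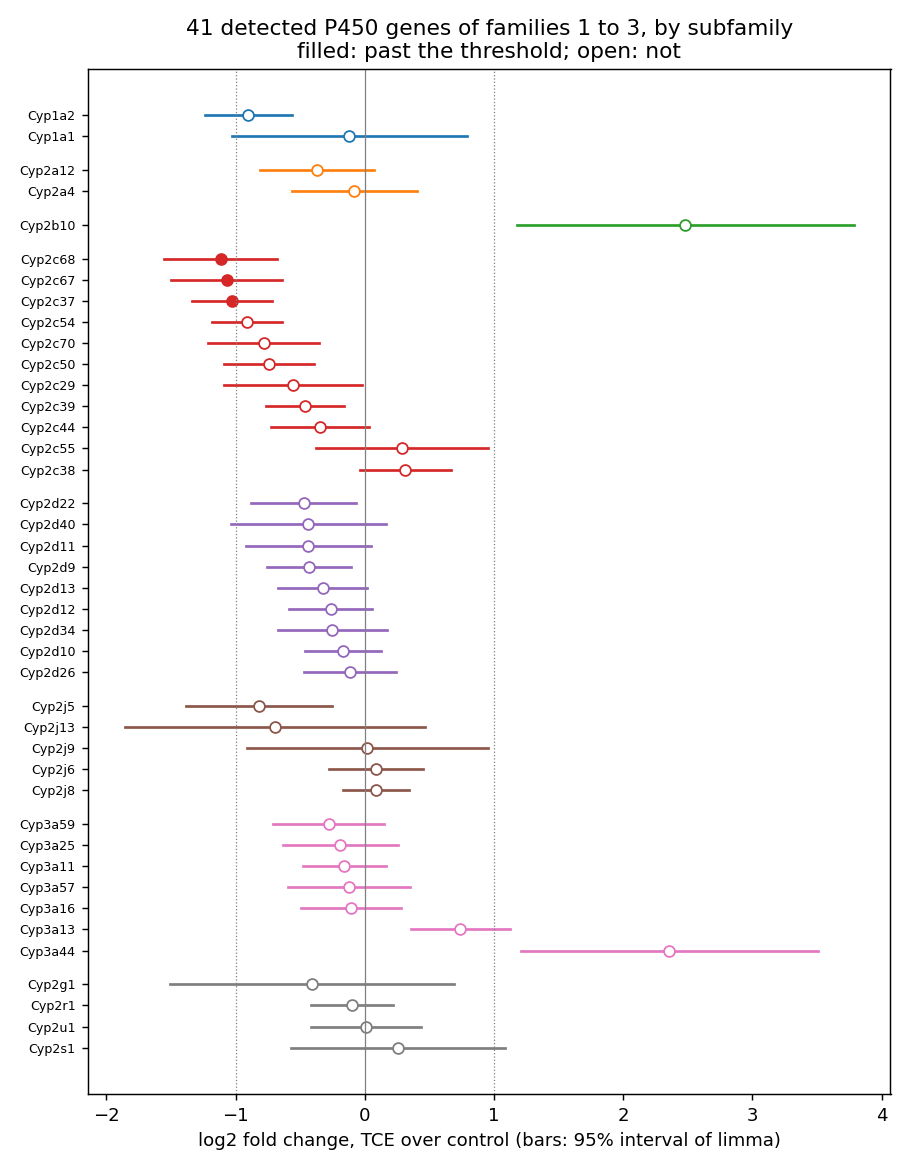
Log2 fold change of TCE over control for the 41 detected P450 genes, grouped by subfamily, with the 95% interval of limma (n = 3 mice per group). Filled points are past the threshold of adjusted p and fold. Solid line, no change, and dotted lines, a fold of 2. The 3 filled points are Cyp2c68, Cyp2c67 and Cyp2c37, and all 9 Cyp2d genes lie left of 0.

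The Cyp2c genes carried all 3 calls. Cyp2c enzymes oxidize arachidonic acid and many drugs, and their genes, apart from the more distant Cyp2c44, lie together on chromosome 19. Of the 13 Cyp2c genes on the array 11 were detected, and Cyp2c65 and Cyp2c66 were not. In 9 of the 11 the TCE mice lay below the control mice without overlap, a pattern found in 10.8% of all detected genes. The other genes, Cyp2c38 and Cyp2c55, were slightly higher in the mean.

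Cyp2c68 (probe at chr19:39763420-39763479, mm9, minus strand) had log2 signals of 15.75, 15.59 and 15.47 in control mice 1, 2 and 3, and of 14.21, 14.82 and 14.44 in TCE mice 1, 2 and 3. The lowest control mouse was above the highest TCE mouse. The log2 fold change was -1.11 (SE 0.18, limma adjusted p = 0.0402), that is, 2.17-fold lower. Cyp2c67 (chr19:39683429-39683488, mm9, minus strand) gave 16.30, 16.27 and 16.05 in control mice and 14.83, 15.42 and 15.16 in TCE mice. Again the groups did not overlap, and TCE mouse 1 was the lowest as it was for Cyp2c68. This was a log2 fold change of -1.07 (SE 0.18, limma adjusted p = 0.0432), or 2.10-fold lower.

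Cyp2c37 (chr19:40086467-40086526, mm9, plus strand) encodes an enzyme that hydroxylates arachidonic acid. Its log2 signals were 14.34, 14.33 and 14.21 in control mice and 13.19, 13.15 and 13.45 in TCE mice. The groups lay apart, and here TCE mouse 2 was the lowest. Its log2 fold change was -1.03 (SE 0.13, limma adjusted p = 0.0207), or 2.04-fold lower.

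None of the 3 calls held in every fit with a mouse left out. When any 1 of the 6 mice was left out, at most 1 of the 3 genes stayed past the threshold, Cyp2c68 without TCE mouse 2 and Cyp2c37 without TCE mouse 3. The fitted values moved little. Over the 6 fits with 1 mouse left out, the log2 fold change ranged from -1.28 to -0.98 for Cyp2c68, from -1.21 to -0.91 for Cyp2c67 and from -1.12 to -0.97 for Cyp2c37.

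The nearest relatives of these genes showed smaller values. Cyp2c54 had log2 signals of 15.76, 15.62 and 15.63 in control mice and of 14.83, 14.64 and 14.79 in TCE mice. Its groups were far apart for their spread, with SDs of 0.08 and 0.10. With a log2 fold change of -0.91 (SE 0.11, limma adjusted p = 0.0201) it was short of a fold of 2. Cyp2c70, an enzyme of bile acid hydroxylation in mice, gave 16.72, 16.67 and 16.67 in control mice and 15.89, 15.59 and 16.24 in TCE mice, with an adjusted p of 0.0969 by limma. Cyp2c50 gave 15.74, 15.50 and 15.36 in control mice and 14.82, 14.66 and 14.90 in TCE mice, with an adjusted p of 0.0649 by limma. Neither gene's groups overlapped, but neither passed the threshold. Cyp2c29, a gene that CAR activators induce, was at 15.95, 15.76 and 15.72 in control mice and at 15.49, 14.77 and 15.49 in TCE mice (log2 fold change -0.56, limma adjusted p = 0.264).

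Cyp2c38 and Cyp2c55 did not follow the others. Cyp2c38 had log2 signals of 15.69, 15.48 and 15.43 in control mice and of 15.90, 16.00 and 15.63 in TCE mice, so the groups overlapped (log2 fold change 0.31, limma adjusted p = 0.332). A second probe of Cyp2c38 gave 0.78 with groups apart (limma adjusted p = 0.275). Cyp2c55, a gene that PXR and CAR activators induce in other settings, was at 8.57, 8.32 and 7.75 in control mice and at 8.93, 8.32 and 8.24 in TCE mice (log2 fold change 0.28, 95% interval -0.38 to 0.95).

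**Figure D2:**
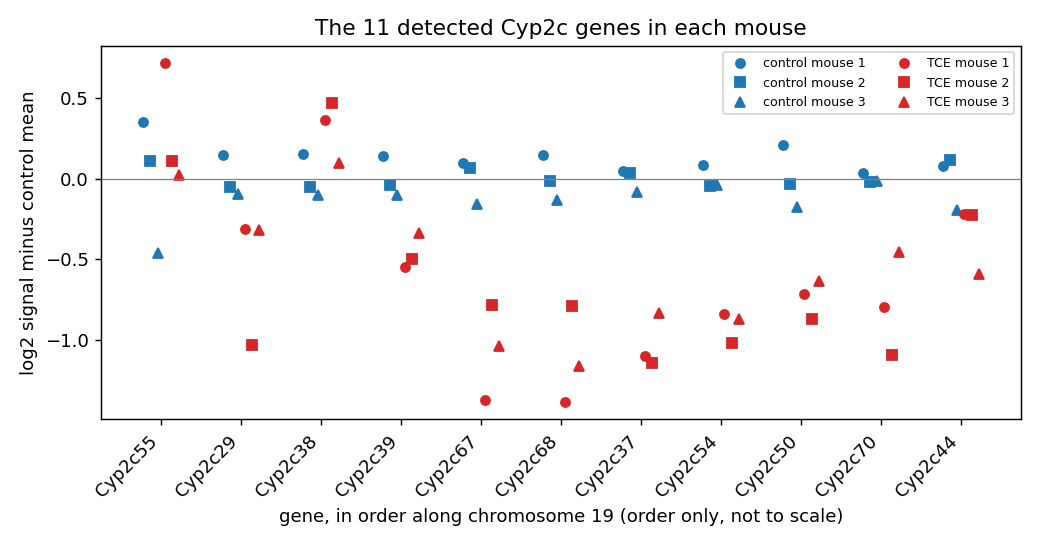
Log2 signal of each mouse minus the mean of the 3 control mice, for the 11 detected Cyp2c genes in their order along chromosome 19 (equal spacing, not to scale). Blue, control mice, and red, TCE mice. The 6 neighbours from Cyp2c67 to Cyp2c70 have all TCE mice below all control mice, by 0.74 to 1.11 in the mean, and Cyp2c38 and Cyp2c55 lie above the control mean.

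In chromosome order the 6 Cyp2c genes with the lowest log2 fold changes stood next to each other among the detected genes, in the order Cyp2c67, Cyp2c68, Cyp2c37, Cyp2c54, Cyp2c50 and Cyp2c70. The next detected Cyp2c genes on both sides had smaller values, Cyp2c39 with -0.46 and Cyp2c44 with -0.35 on the log2 scale. Cyp2c44 is next in order only, since its probe starts at chr19:44079535 and that of Cyp2c70 at chr19:40227969 (mm9). Within these 6, the mice kept a different order in different genes. TCE mouse 1 was lowest in Cyp2c67 and Cyp2c68, and TCE mouse 2 in Cyp2c37, Cyp2c54, Cyp2c50 and Cyp2c70. The median over the 11 Cyp2c genes, relative to the control mean, was -0.72, -0.79 and -0.59 on the log2 scale in TCE mice 1, 2 and 3 and 0.14, -0.02 and -0.10 in control mice 1, 2 and 3.

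Close relatives can share signal on an array, so the probes were aligned with each other. Of 289 pairs of probes for different genes of the same subfamily, 2 had at least 40 aligned bases with at most 5 mismatches, and both were Cyp2c pairs among these 6 genes. The probes of Cyp2c67 and Cyp2c68 aligned over 59 bases with 4 mismatches, and those of Cyp2c37 and Cyp2c50 over 40 bases with 5 mismatches. The following 30-base stretches of the probes, 5′ to 3′, are shown because they hold bases that tell the genes apart, in capitals. They hold 2 of the 4 mismatches between Cyp2c67 and Cyp2c68 and all 5 between Cyp2c37 and Cyp2c50.
Cyp2c67: acAcagtcccagAaattccatctatattcc
Cyp2c68: acCcagtcccagGaattccatctatattcc
Cyp2c37: aCactgACttttatccaGttcttttgcctC
Cyp2c50: aTactgCTttttatccaTttcttttgcctG
Whether a probe of such a pair also takes up RNA of the other gene was not tested. A second probe of Cyp2c67, which shares at most 8 bases in a row with a probe of another Cyp2c gene, changed by -0.93 (limma adjusted p = 0.0373). Probes were compared only with probes, which can lie at different places in their transcripts. A short shared run therefore does not show which RNA a probe takes up. A second probe of Cyp2c37 gave -0.79 (limma adjusted p = 0.184), and the other two probes of Cyp2c54 gave -1.13 and -0.92. The closely related Cyp2c40 and Cyp2c69 were not analysed here, since no probe carried these symbols, so shared signal with them could not be examined.

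Promoters were also read, from the RefSeq promoter table on GRCm38.p6, which is C57BL/6J sequence and held 44 of the 52 genes. Of the 11 detected Cyp2c genes, Cyp2c44 and Cyp2c54 were not matched to it. Liver P450 promoters are known to carry sites for the hepatocyte nuclear factor HNF4 near the start. The 250 bases before the start of 4 Cyp2c genes follow, with each match to the HNF4 core CAAAGTCNA in capitals (N is any base, and both strands were searched). They are shown because they pair the genes whose probes were most alike.
Cyp2c67, chr19:39649043-39649292, minus strand: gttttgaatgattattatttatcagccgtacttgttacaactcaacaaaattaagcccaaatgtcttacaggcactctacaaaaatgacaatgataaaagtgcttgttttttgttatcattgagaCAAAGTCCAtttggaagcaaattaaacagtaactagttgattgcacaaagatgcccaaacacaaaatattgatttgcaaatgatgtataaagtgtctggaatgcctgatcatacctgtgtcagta
Cyp2c68, chr19:39741102-39741351, minus strand: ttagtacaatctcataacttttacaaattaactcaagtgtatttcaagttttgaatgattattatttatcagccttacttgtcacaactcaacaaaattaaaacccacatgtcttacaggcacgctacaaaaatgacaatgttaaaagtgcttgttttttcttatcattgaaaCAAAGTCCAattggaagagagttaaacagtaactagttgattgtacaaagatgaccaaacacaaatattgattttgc
Cyp2c37, chr19:39992174-39992423, plus strand: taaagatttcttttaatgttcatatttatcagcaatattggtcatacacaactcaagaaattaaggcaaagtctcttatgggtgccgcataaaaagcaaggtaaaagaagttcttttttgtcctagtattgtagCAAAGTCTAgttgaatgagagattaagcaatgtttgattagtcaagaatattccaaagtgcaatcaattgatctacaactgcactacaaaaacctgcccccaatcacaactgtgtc
Cyp2c50, chr19:40089429-40089678, plus strand: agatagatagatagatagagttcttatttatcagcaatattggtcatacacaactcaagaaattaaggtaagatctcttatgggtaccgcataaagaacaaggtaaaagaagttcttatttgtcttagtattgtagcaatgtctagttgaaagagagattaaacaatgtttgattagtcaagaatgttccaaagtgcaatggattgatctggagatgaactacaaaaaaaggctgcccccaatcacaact
Aligned end to end, with gaps counted as differences, the windows of Cyp2c37 and Cyp2c50 were 84.3% identical and those of Cyp2c67 and Cyp2c68 were 63.1% identical. The lower figure comes mostly from gaps. Outside the gaps, 188 of 202 aligned bases were identical for Cyp2c67 and Cyp2c68, with 96 gap positions. For Cyp2c37 and Cyp2c50 it was 215 of 245, with 10 gap positions.

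The core CAAAGTCNA was present in 11 of the 44 P450 promoters, against 1.06% of the 27025 genes in the table, and 7 of the 11 were Cyp2c genes. The stricter CAAAGTCCA, which is contained in it, was in 6 of 44, against 0.451% of all genes. These motifs were chosen after these promoters had been read, related promoters share ancestry, and a match is a description of the letters only. The 6 detected Cyp2c genes with the core had log2 fold changes from -1.11 to -0.46, and the 3 without it, Cyp2c38, Cyp2c50 and Cyp2c55, from -0.74 to 0.31. Outside the Cyp2c genes 4 P450 genes held the core. Cyp3a11 and Cyp3a16 had values of -0.16 and -0.11. Cyp2b9 and Cyp2b13 were not detected and not tested, and their signals in all TCE mice were above those in all control mice. For comparison, the TATA box letters TATAAA were in 21 of 44 P450 promoters and in 14.3% of all genes, and the nuclear receptor half-site AGGTCA in 14 of 44 and in 15.8%. Transcripts of Hnf4a were at 16.12 ± 0.15 (SD, n = 3) in control and 16.21 ± 0.07 (SD, n = 3) in TCE mice on the log2 scale, with overlapping groups.

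Among the targets of AHR, Cyp1a2, which metabolizes caffeine and aromatic amines and is expressed in untreated liver, was lower. Its log2 signals (chr9:57528060-57528119, mm9, minus strand) were 13.08, 13.27 and 13.24 in control mice and 12.51, 12.14 and 12.24 in TCE mice. The groups did not overlap. Its log2 fold change was -0.90 (SE 0.14, limma adjusted p = 0.0355), or 1.87-fold lower, so that it met the p but not the fold threshold, and with 1 mouse left out its adjusted p ranged from 0.0646 to 0.152. Cyp1a1, the strongly inducible relative, was near the detection limit, at 5.42, 5.71 and 4.84 in control mice and at 4.57, 5.89 and 5.14 in TCE mice. It was not well above background in TCE mouse 1, and the groups overlapped. Cyp1b1 was well above background on none of the 6 arrays. Of the AHR-responsive genes outside the P450 families, 5 were tested, 4 had values above 0, and the median log2 fold change was 0.33. None of the 5 passed the threshold.

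Of the 5 Cyp2b genes only Cyp2b10 was detected and tested, and its value was above 0 without passing the threshold. Cyp2b10 (chr7:26711522-26711581, mm9, plus strand) had log2 signals of 10.36, 9.53 and 9.85 in control mice and of 13.34, 11.20 and 12.63 in TCE mice. Each TCE mouse was above every control mouse, and the TCE mice were themselves spread over more than 2 units, with an SD of 1.09 against 0.42 in control mice. The log2 fold change was 2.48 (95% interval 1.17 to 3.79), or 5.58-fold higher, and with an adjusted p of 0.0886 by limma it did not pass the threshold. Over the 6 fits with 1 mouse left out, the log2 fold change ranged from 2.01 to 3.08 and the adjusted p of limma from 0.0315 to 0.268. Only 1 of the 6 fits passed the threshold, the one without TCE mouse 2, the lowest of the treated mice.

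Cyp2b9 and Cyp2b13, close relatives of Cyp2b10 with female-biased expression, had no complete group above background and were not tested. Cyp2b9 was at 4.59, 4.59 and 4.15 in control mice and at 7.58, 4.72 and 6.61 in TCE mice. It was well above background only in TCE mice 1 and 3, the same mice that were highest for Cyp2b10. Cyp2b13 was at 2.51, 2.49 and 2.46 in control mice and at 4.61, 4.58 and 4.42 in TCE mice, and was well above background on none of the 6 arrays. Cyp2b19 and Cyp2b23 were also never well above background. The probes of Cyp2b10, Cyp2b9 and Cyp2b13 shared at most 6 bases in a row with a probe of another Cyp2b gene. Whether they take up RNA of a related gene was not tested.

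**Figure D3:**
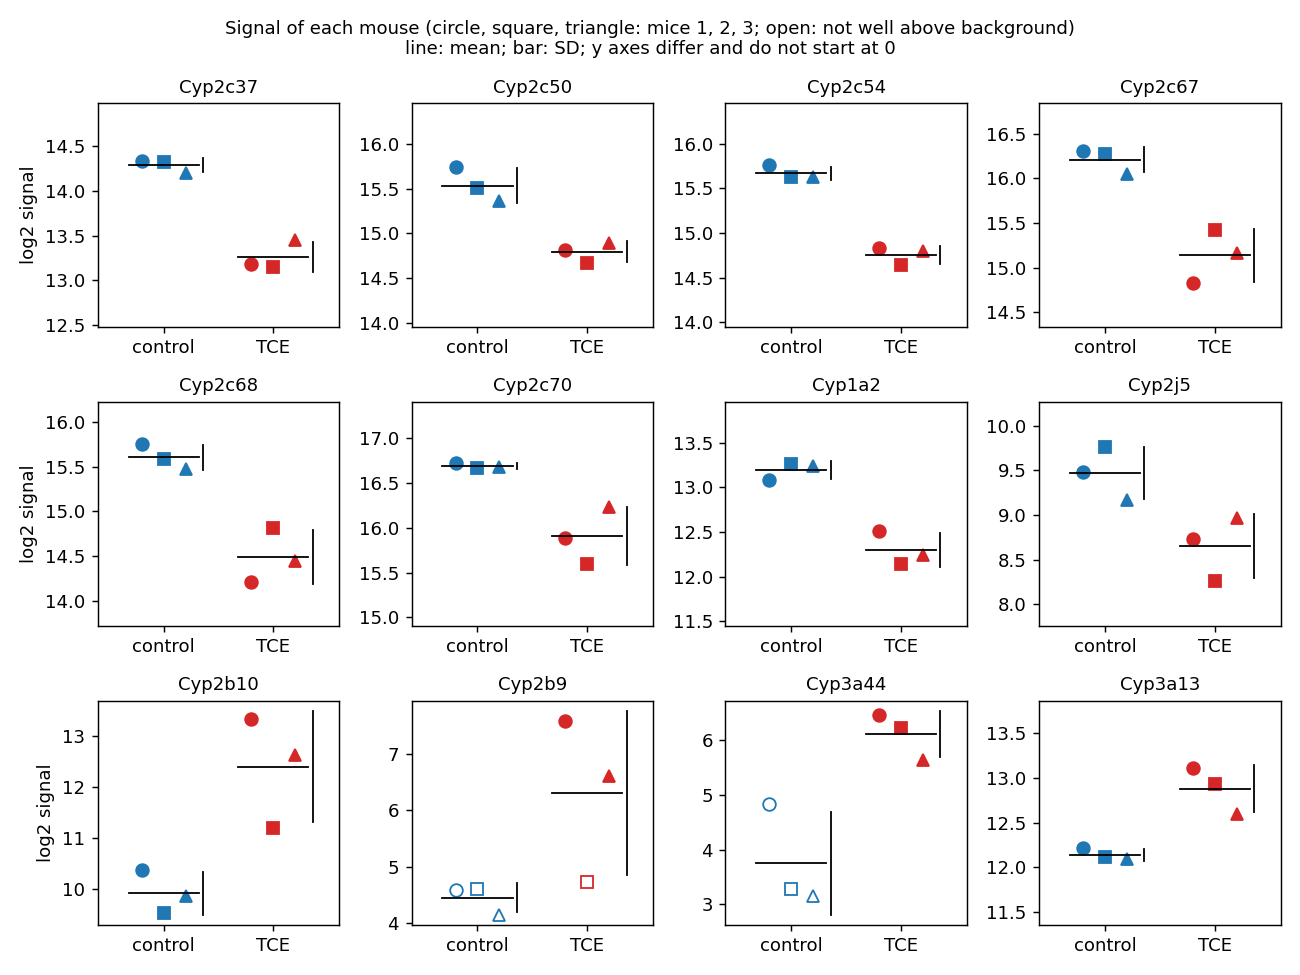
Log2 signal of each mouse for 12 P450 genes, with circle, square and triangle for mice 1, 2 and 3 of a group. Horizontal line, group mean, and vertical bar, SD (n = 3). Open symbols were not well above background. The y axes differ between panels and do not start at 0. The 12 genes were picked and all have groups apart, so they do not stand for the set. The first 8 panels have all TCE mice below all control mice and the last 4 have them above. Of the 41 detected P450 genes, 17 were lower without overlap (10.8% of all detected genes) and 3 higher (17.1%). Cyp2b9 was not detected, and no control signal of Cyp3a44 was well above background. TCE mouse 2 was the lowest of the treated mice in Cyp2b10 and Cyp2b9.

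The Cyp3a genes, whose enzymes oxidize a large share of drugs and steroids, had overlapping groups in 5 of 7 genes, and none of the 7 passed the threshold. Cyp3a11, the main PXR target, was at 16.81, 16.69 and 16.98 in control mice and at 16.82, 16.58 and 16.60 in TCE mice. The groups overlapped, and the 95% interval of its log2 fold change, -0.48 to 0.16, excluded a 2-fold rise. Cyp3a25 was at 15.41, 15.13 and 14.79 in control mice and at 15.07, 14.92 and 14.78 in TCE mice, again with overlap (95% interval -0.64 to 0.25).

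Both Cyp3a genes with groups apart were higher, a pattern found in 17.1% of all detected genes. Cyp3a44, a female-biased gene, was well above background in 0 of 3 control mice and in 3 of 3 TCE mice. Its log2 signals were 4.83, 3.28 and 3.15 in control mice and 6.46, 6.23 and 5.65 in TCE mice. With the control signal set to the lowest measurable level, the signal was at least 2.51-fold higher in TCE mice. Cyp3a44 counted as detected through the TCE group alone. Its limma adjusted p of 0.0738 rests on control signals not well above background. Cyp3a13, which is expressed in gut and liver, was at 12.22, 12.12 and 12.09 in control mice and at 13.12, 12.93 and 12.60 in TCE mice. The mean difference was 0.74 (SE 0.16, limma adjusted p = 0.0832), with groups apart, and a second probe gave 0.46. Cyp3a59 had the lowest fitted value of the subfamily, -0.28, with groups that overlapped. A second Cyp3a59 probe gave -1.77 with a 95% interval of -3.71 to 0.18, and its signal of 5.37 in TCE mouse 2 was not well above background.

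By their brightest probes, the 9 Cyp2d genes had small differences on the same side of 0. All 9 were detected, and all 9 had a log2 fold change below 0, from -0.47 for Cyp2d22 to -0.12 for Cyp2d26. In 5 of them all TCE mice were below all control mice, a pattern found in 10.8% of all detected genes. None passed the threshold. Cyp2d22, counted as the mouse gene most like human CYP2D6, was at 13.39, 13.29 and 13.01 in control mice and at 12.66, 13.01 and 12.60 in TCE mice (limma adjusted p = 0.218). The highest TCE mouse only just fell below the lowest control mouse. Cyp2d9, the male-biased steroid 16-alpha-hydroxylase, was at 15.49, 15.49 and 15.33 in control mice and at 15.03, 15.17 and 14.82 in TCE mice (log2 fold change -0.43, limma adjusted p = 0.178). Cyp2d26, the smallest change, turned to 0.01 when TCE mouse 3 was left out. Cyp2d34 was at -0.25 with overlapping groups, while its second probe gave -0.74 with groups apart (limma adjusted p = 0.123). With the median of a gene's probes in place of the brightest, the Cyp2d median was -0.43.

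The Cyp2a and Cyp2j genes were mixed, and none passed the threshold. Cyp2a12 was at 16.15, 16.20 and 16.24 in control mice and at 16.04, 15.43 and 16.00 in TCE mice, a mean difference of -0.37 in which TCE mouse 2 was the lowest by far. Cyp2a4, a female-biased testosterone hydroxylase, had overlapping groups on both of its probes (-0.08 and -0.22). Cyp2a5 was not analysed here, since no probe carried that symbol. Cyp2a22 was well above background only in TCE mouse 3. Cyp2j5, an arachidonic acid epoxygenase, was at 9.48, 9.76 and 9.17 in control mice and at 8.73, 8.26 and 8.97 in TCE mice. Its groups lay apart (log2 fold change -0.82, SE 0.23), and limma gave an adjusted p of 0.148. Cyp2j6, Cyp2j8 and Cyp2j9 lay between 0.02 and 0.09 with overlapping groups, while Cyp2j13 was at -0.70 with TCE mouse 2 at 8.11 against 9.94 and 9.84 in the other treated mice.

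Among the subfamilies with few members, Cyp2g1, Cyp2r1, Cyp2s1 and Cyp2u1 were detected, with log2 fold changes from -0.41 to 0.26 and overlapping groups. Cyp1b1, Cyp2t4 and Cyp2w1 were not detected. The result for Cyp2u1, an enzyme of fatty acid hydroxylation, depended on the probe. Its brightest probe, with a control mean of 17.25, gave 0.01. The other 2 probes, with control means of 8.81 and 7.41, gave -0.54 and -1.10 on the log2 scale. Their adjusted p were 0.16 and 0.0593 by limma, and both had all TCE mice below all control mice. Only the probe at -1.10 was annotated to a RefSeq transcript, while the brightest probe stood for the gene in all counts. The bright probe holds 16 GT repeats in a row, and this 30-base stretch shows part of them, in capitals.
Cyp2u1: gGTGTGTGTGTGTGTGTGTGTGTGTGTGTG
Repeats of that length, on either strand, were found in 18 of 55602 probe sequences on the array, and whether this probe measures Cyp2u1 alone was not tested.

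In all, 12 P450 genes had several detected probes. The probes fell on the same side of 0 in 10 of them, and the exceptions were Cyp2j6 and Cyp2u1. The widest gap between probes of a gene was 1.49 log2 units, in Cyp3a59. With the median of a gene's probes in place of the brightest, Cyp2c37 was at -0.91 and no longer past the threshold.

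**Figure D4:**
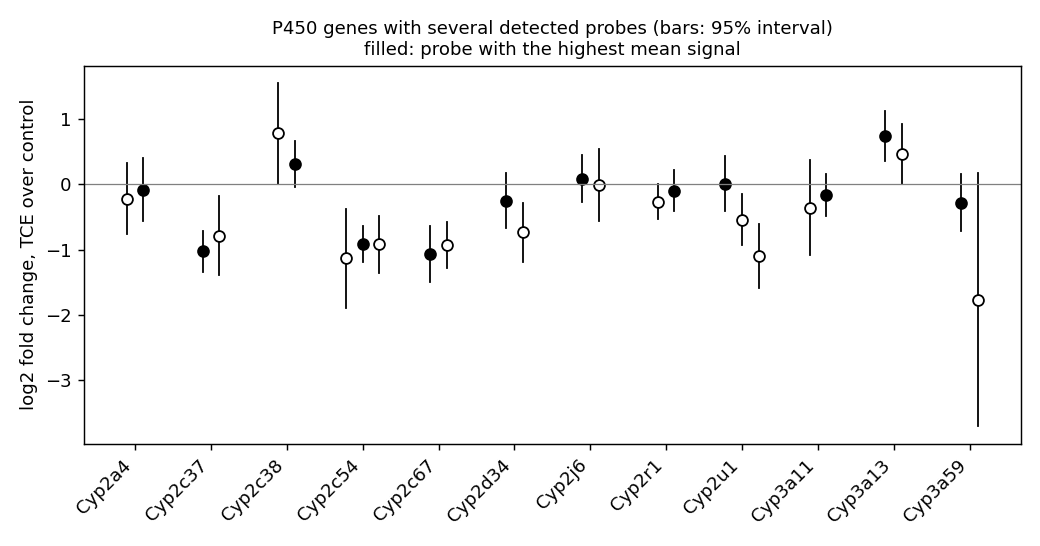
Log2 fold change of TCE over control for each probe of the 12 P450 genes with several detected probes, with the 95% interval of limma (n = 3 mice per group). Filled points are the probes with the highest mean signal, which stood for the gene. The probes of Cyp2c37, Cyp2c54 and Cyp2c67 lie between -1.13 and -0.79, while those of Cyp2u1 and Cyp3a59 lie more than 1 unit apart.

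The proteins that P450 enzymes work with had values on the opposite side of 0 to most Cyp2c genes. All 9 genes tested had log2 fold changes above 0, with a median of 0.40 against 0.02 over all detected genes, and none passed the threshold. Por, the oxidoreductase that supplies the electrons, was 0.79 higher (SE 0.20, limma adjusted p = 0.115) with groups apart. Ephx1, the microsomal epoxide hydrolase that opens epoxides P450 enzymes form, was 0.54 higher with groups apart (limma adjusted p = 0.169). Alas1, the first enzyme of heme synthesis, had a value of 1.37, but its control mice were spread with an SD of 1.43 and the groups overlapped.

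Of the receptors and factors that act on P450 genes, 24 were tested, with 12 above and 12 below 0. The forkhead factor Foxa2 was the only one past the threshold, and it was lower by limma (log2 fold change -1.07, SE 0.16, adjusted p = 0.0319). The receptors themselves were not called. CAR (Nr1i3) had a log2 fold change of 0.13 with overlapping groups, PXR (Nr1i2) of 0.42 with groups apart (limma adjusted p = 0.151), and Ahr of -0.53 with groups apart (limma adjusted p = 0.207).

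Genes outside the P450 families that respond to CAR and PXR were mixed. Of 25 tested, 18 were above 0, with a median log2 fold change of 0.29. By limma 3 were up-regulated past the threshold, all of them enzymes of detoxification. They were the glutathione transferases Gstt2 (1.16, adjusted p = 0.0111) and Gsta2 (1.14, adjusted p = 0.0432), and the aldo-keto reductase Akr1b7 (1.98 fitted, adjusted p = 0.0157). Akr1b7 was well above background in 0 control and 3 TCE mice and was at least 3.36-fold higher. It counted as detected through the TCE group alone, so its p rests on control signals not well above background. By limma 2 were down-regulated, the carboxylesterase Ces2a (-1.09, adjusted p = 0.0314) and the organic anion transporter Slco1a4 (-1.24, adjusted p = 0.0328).

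Over 9 tested male-biased liver genes the median log2 fold change was -0.43, and 6 were below 0. The list used includes Cyp2d9, Cyp2u1 (by its bright repeat probe) and Cyp2c29 from the set itself, and the median is the value of Cyp2d9. By limma 2 were past the threshold, both outside the set. They were Hsd3b5, a steroid dehydrogenase (-1.83, adjusted p = 0.0414), and Cyp7b1, an oxysterol hydroxylase (-1.43, adjusted p = 0.044). Of the female-biased P450 genes 4 were tested, with a median of -0.10 and none past the threshold, although Cyp3a44 was among them.

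Genes of the hepatocytes around the central vein, other than the P450 genes described here, had a median change of -0.63 on the log2 scale over 11 tested, and 8 were below 0. By limma 2 were down-regulated, the glutamate transporter Slc1a2 (-1.65, adjusted p = 0.00747) and the receptor Lgr5 (-1.11, adjusted p = 0.0351). The glutathione transferase Gstm3 was higher with groups apart (0.82, limma adjusted p = 0.0492), short of a fold of 2. Genes of the hepatocytes around the portal vein had a median of -0.06 over 12 tested, with 7 below 0 and none past the threshold. Whether the lower Cyp2c and Cyp1a2 values go with these cells was not tested.

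Markers of other cell types were set beside these results. None of the 33 tested markers of cholangiocytes, macrophages, stellate cells, endothelial cells, lymphocytes, neutrophils and red cells passed the threshold. The red cell gene Alas2 was lower at a limma adjusted p of 0.0215 with a log2 fold change of -0.91. Signals of the markers of a cell type were summed before taking log2, so bright markers weigh most. For the 3 detected T and NK cell markers this gave 13.98 to 14.28 in control mice and 12.53 to 13.95 in TCE mice. Among these 3, Cd4 had a control mean of 14.01 and Cd3e of 9.59. Cd3d, Cd8a and Klrb1c were not detected. For the 10 hepatocyte markers the log2 sum was 21.17 to 21.26 in control and 21.20 to 21.32 in TCE mice. The part of these differences in the P450 values was not tested.

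The slide could be examined only by comparing the mice that shared one. With control mouse 1 left out, which is the same as a block for slide, 0 P450 genes were lower and 1, Cyp3a44, was higher past the threshold (limma adjusted p = 0.0237), with no control mouse well above background and therefore no measured fold. The fitted log2 fold changes of Cyp2c68 and Cyp2c67 were then -1.04 and -1.02.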

How the data were processed

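Liver RNA of 3 control and 3 TCE mice was labeled with Cy3 and hybridized to Agilent mouse arrays. The authors deposited the scanner output of Feature Extraction 10.7.1.1, a background-subtracted and detrended intensity per spot, and a table of log2 group means quantile normalized by the authors. That table was used only for gene symbols and as a check, and 99.99% of the means recomputed here lay within 0.01 of its values. The array names and the sample titles number the mice differently, though they agree on the group, so mice are numbered here by the replicate in the labels and arrays follow the sample they were deposited under. Spots with an outlier flag were left out, intensities were put on the log2 scale, spots of a probe were averaged, and arrays were quantile normalized over 55681 probes. Linear models with group as the only factor were fitted to all 22731 detected probes (limma 3.58.1 under R 4.3.3, moderated two-sided test). The number of arrays limits the precision. A probe below background in a whole group has a lower bound for its fold. That bound used the lowest signal well above background on each array of that group, or the probe's own where higher.

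Genes past the threshold were named with all their probes, together with the largest rise and fall of each subfamily and inducible or sex-biased members listed beforehand. Genes outside the set were named when past the threshold or when a result turned on them. The P450 members, the gene lists and the tests were chosen with earlier results of these data known. Positions of probes follow the array's annotation (mm9), and promoters come from RefSeq (GRCm38.p6). The fit was tested on simulated data. Alternatives were another normalization, background correction, filters, blocks, weights, variance model, tests and probe rule, and each mouse left out. The number of mice does not allow an exact permutation p below 0.1.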

Additional observations from a re-analysis of the deposited data

How the results depend on the processing

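The direction of most results held, while the calls near the threshold did not. The median log2 fold change of the P450 genes stayed between -0.35 and -0.20 over 19 alternatives, its lowest and highest values coming from mice left out, that of the Cyp2c genes between -0.79 and -0.56, and that of the Cyp2j genes between -0.34 (no filter on dim probes) and 0.09. The Cyp1a median was -0.90 where probes had to be well above background on all arrays, which leaves only Cyp1a2. The count of down-regulated P450 genes, 3 as reported, was 0 with no filter on dim probes, 0 with the slide as a block, 0 with the methods' t-test after adjustment, 5 with no fold minimum and 0 to 1 with a mouse left out. The count of up-regulated P450 genes, 0 as reported, was 1 with no filter (Cyp2b13, which was never well above background), 1 with the slide as a block (Cyp3a44), 2 with array weights and 2 with the methods' t-test without adjustment (Cyp2b10 and Cyp3a44 in both), and 0 to 2 with a mouse left out. Under the replicate block, which uses the number of the mouse in the labels, 0 were lower and 0 higher. The deviations of mice with the same number correlated at 0.09, 0.01 and -0.09, and those of mice with different numbers at -0.11 to 0.11. With 3 mice per group this cannot decide whether mice of the same number shared a step of the work. Among the 41 detected genes the sign turned for 9, none of them called. Cyp2u1 was at -0.15 with the 75th percentile scaling, -0.020 with normexp, -0.54 with the median of its probes and -0.16 to 0.12 with a mouse left out. With normexp Cyp1a1 was at 0.0067 and Cyp2j6 at -0.0049. With a mouse left out Cyp1a1 lay from -0.47 to 0.20, Cyp2j6 from -0.0047 to 0.20, Cyp2a4 from -0.26 to 0.071, Cyp2d26 from -0.20 to 0.0053, Cyp2g1 from -0.89 to 0.014, Cyp2j9 from -0.25 to 0.42 and Cyp3a57 from -0.30 to 0.031. With the slide as a block Cyp3a57 was at 0.031, and with array weights Cyp3a16 at 0.014. The blocks and the mice left out leave fewer residual degrees of freedom, and the unfiltered fit tests more probes. Whether this accounts for the calls that changed was not tested.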
